A study of Mus musculus with 20 samples.

Results

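The regions described here are 4885 GPS2 peaks of FCCP-treated 3T3-L1 cells, a mouse preadipocyte line, for which the list of untreated cells held no peak nearby. They were chosen by their values in these same lists. A peak entered if it lay on chromosomes 1 to 19, had a height of at least 5 and below 15 normalized tags (tags in the peak, scaled to a library of 10000000 tags), and had no untreated peak centre within 1000 bp of its own. Of 11946 FCCP peaks in that height range, 40.9% met the rule, against 64.4% of all 57169 FCCP peaks on these chromosomes; both shares come from the choice itself and are no finding. The FCCP list held 60481 peaks in all, and the 4 lists of the series used here held 164307.

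The series has 20 mouse ChIP-seq samples, and 4 GPS2 lists are used. The samples labelled minus and plus FCCP are 3T3-L1 cells, each called on 1 pool of 2 libraries. Dose and duration of FCCP are not given in the sources used here; the treatment text attached to both samples speaks of FCCP, so the titles alone separate them. The 2 tissue lists are brown adipose tissue (BAT) of wild-type mice on a mixed 129sv/C57BL6J background, labelled male and female, although the growth protocol speaks of male animals. Their background was BAT of the same labelled sex from Gps2 flox/flox mice carrying Adipoq-Cre, in which the adiponectin promoter drives Cre in fat cells; other cells of the tissue keep the gene. Ages are not given in the sources used here.

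GPS2 belongs to the corepressor complexes built on N-CoR or SMRT, which also hold the histone deacetylase HDAC3, and it restrains ubiquitin signalling. A share of the protein sits at mitochondria, and it is known to move to the nucleus when mitochondrial function fails and to act there on nuclear genes for mitochondrial proteins. FCCP carries protons across the inner mitochondrial membrane, which collapses the membrane potential. The comparison of the 2 cell lists thus asks where GPS2 is found on chromatin once mitochondria are uncoupled. With 1 list per condition there is no spread between replicates, and no difference is tested. Intervals beside shares are 95% Wilson intervals; they hold counting error alone and take regions as independent. The cell and tissue labels could not be checked against marker genes, since the lists hold positions only.

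Within the range set by the rule, most FCCP-only peaks lay near its lower limit. That limit is itself high in the list: all FCCP peaks had a median of 4.03 normalized tags, and 21.3% reached 5. The FCCP-only median height was 5.67, with quartiles of 5.23 and 6.42. In tags, the median was 38.0, for which counting error alone is 16.2% of the height. Of the 4885 peaks, 3180 were between 5 and 6 normalized tags, 1420 between 6 and 8, and 285 between 8 and 15. FCCP peaks of the same range with an untreated partner, 7061 in number, were somewhat taller, with a median of 5.97 and quartiles of 5.37 and 7.17.

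A partner was missing less often the taller the peak was. Between 5 and 6 normalized tags, 47.3% of FCCP peaks had no untreated partner (46.1 to 48.5), between 7 and 8 it was 29.9% (27.5 to 32.5), and between 10 and 15 it was 14.4% (11.8 to 17.6). The same slope was present in the opposite direction: 34.9%, 20.4% and 6.96% of untreated peaks of these heights had no FCCP partner. In every height class the FCCP share was the higher one. On these chromosomes the untreated list held 42486 peaks and the FCCP list 57169, so FCCP peaks had fewer possible partners. The part of list length in this order was not tested.

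**Figure D1:**
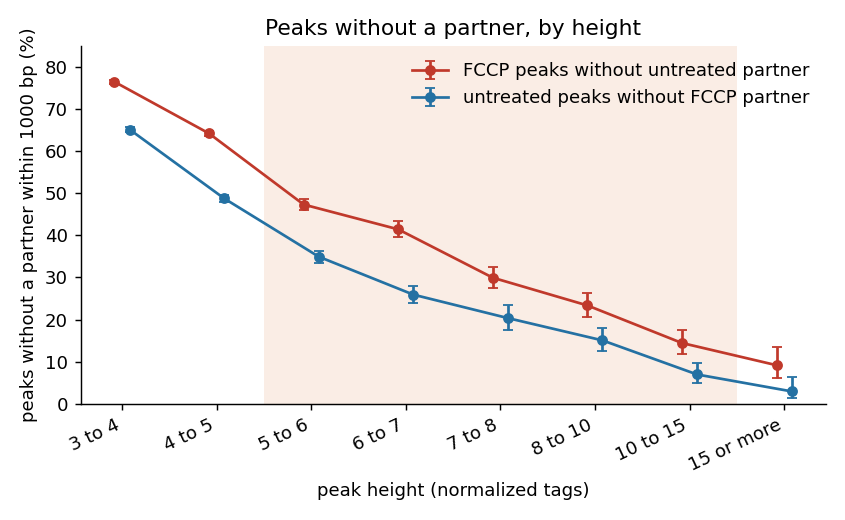
Share of peaks without a partner centre within 1000 bp in the other list (y axis, percent) by peak height in normalized tags (x axis), for FCCP peaks (red) and untreated peaks (blue); bars are Wilson 95% intervals and the shaded classes are the height range of the FCCP-only peaks. Both curves fall with height, and the FCCP curve lies above the untreated one in each class, from 47.3% against 34.9% at 5 to 6 normalized tags to 14.4% against 6.96% at 10 to 15.

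The mirrored rule, untreated peaks of 5 to 15 normalized tags without an FCCP centre within 1000 bp, gave 2196 of 7776 peaks (28.2%, against 53.0% of all 42486 untreated peaks on these chromosomes). FCCP-only peaks were thus 2.22 times as many, and they were the more numerous on 19 of 19 chromosomes; the smallest ratio was 1.69 (chromosome 19) and the largest 3.23 (chromosome 12). Over all peaks of the height range, with or without a partner, FCCP peaks were 1.54 times as many as untreated ones. The ratio of 2.22 also changed with the scale of height. In the deeper untreated pool (74504840 tags against 66979291) the lowest peak above the limit held 38 tags, in the FCCP pool 34. With untreated peaks taken over the same range of raw tags as the FCCP peaks, the ratio was 1.17. That range starts below 5 normalized tags in the untreated pool, so it takes in lower untreated peaks. The caller's own estimate of the share of tags in peaks was 2.77% in the FCCP pool and 2.00% in the untreated pool; its part in the ratio was not tested.

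The FCCP-only peaks stood only a little above their surroundings. For each peak the authors' caller gives the fold over the local region, here the 10000 bp around it, and asked for at least 4-fold in both cell lists. The FCCP-only median was 4.63-fold, with quartiles of 4.27 and 5.26. FCCP peaks of the same height range with a partner had a median of 5.88-fold, with quartiles of 4.95 and 7.43. Untreated-only peaks had 4.48-fold, close to the FCCP-only value. Within the FCCP-only peaks the fold did not rise with height: its median was 4.66 at 5 to 6 normalized tags, 4.59 at 6 to 8 and 4.61 at 8 to 15. For untreated-only peaks the median fold was 4.48, 4.5 and 4.44 in these classes, so the level fold was not particular to FCCP-only peaks. For peaks with a partner it was 5.70, 5.86 and 6.64.

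**Figure D2:**
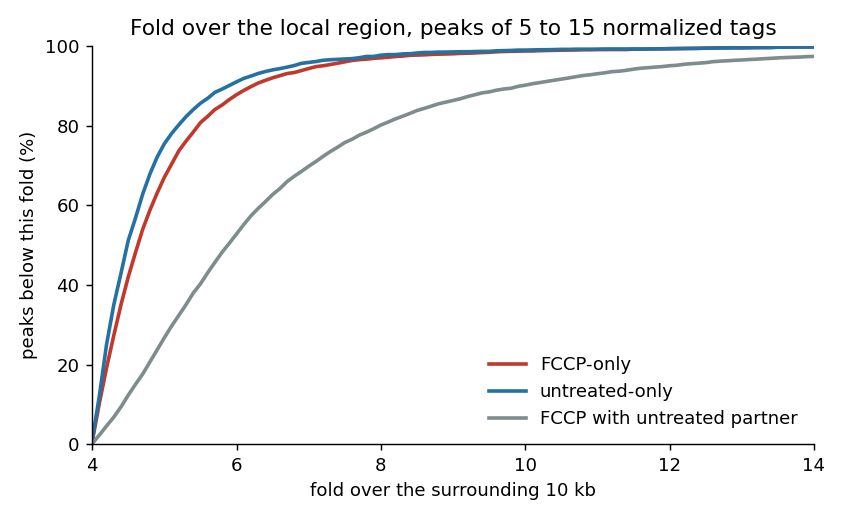
Cumulative share of peaks (y axis, percent) below a given fold over the surrounding 10 kb (x axis, from the 4-fold limit of the call), for FCCP-only (red), untreated-only (blue) and FCCP peaks with an untreated partner (grey), all of 5 to 15 normalized tags. The red and blue curves rise steeply just above the limit, with medians of 4.63 and 4.48, while the grey curve has its median at 5.88.

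Height divided by this fold gives the local level, the tags that a stretch of peak width would hold at the density of the surroundings. Its median was 1.24 normalized tags for FCCP-only peaks, 1.07 for FCCP peaks with a partner, 1.26 for untreated-only peaks and 0.812 for all FCCP peaks. The whole-genome average of the FCCP pool, as the caller set it, was 1.31, and 1845 of the FCCP-only peaks had a higher local level than that. At the median local level the 4-fold rule asked for 4.96 normalized tags. That is above the tag threshold of the untreated list, which was 26 tags or 3.49 normalized tags; for 4443 of the 4885 peaks (91.0%, 90.1 to 91.7) the local rule was the stricter of the 2 limits, if the surroundings held the same density without FCCP. The same held for 71.7% of FCCP peaks with a partner and 93.4% of untreated-only peaks. The tag threshold is no strict floor for the listed heights. Untreated peaks went down to 21 tags, and FCCP peaks to 19 under a threshold of 24. The comparison of the 2 limits is therefore approximate.

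The median FCCP-only peak was 1.16 times the height that the local rule required of it, and the median peak with a partner 1.47 times. The excess of a peak over its required height was taken as a fraction of that required height. It was set against the counting error as a fraction of the peak's own height. Shares with both taken over the peak's own height were not worked out and could only be equal or higher. The excess fraction was below the counting error at 2449 FCCP-only peaks (50.1%, 48.7 to 51.5). It was so at 15.6% of FCCP peaks with a partner (14.7 to 16.4) and at 56.9% of untreated-only peaks (54.8 to 58.9). Over all FCCP peaks the share was 38.3%, and over all untreated peaks 38.8%. Which call rule left these places out of the untreated list was not tested, since that list gives no values for places without a peak.

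Where an untreated peak lay 1 to 5 kb away, the local levels at the FCCP-only peak and at this neighbour could be set side by side. This was so for 666 FCCP-only peaks. The untreated neighbour had a median height of 4.97 normalized tags (quartiles 4.16 and 5.64); unlike the FCCP-only peaks, these neighbours had no lower limit of 5 to meet. The local level per bp of the untreated neighbour was 0.914 times that of the FCCP-only peak, with quartiles of 0.822 and 1.03. Since the fold had to be at least 4, the local level of a called peak cannot exceed its height divided by 4. Lower peaks are thus held to lower local levels by the call. The ratio therefore cannot decide whether the surroundings differed between the pools. These pairs are the part of the regions that lies near untreated peaks and need not stand for the rest.

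The 5 tallest FCCP-only peaks had dense surroundings, with local levels of 3.13 to 3.65 normalized tags. The tallest, chr1:155969240-155969500 in mm8, had 14.9 normalized tags (100 tags, exact 95% counting interval 12.1 to 18.2), 4.76-fold over its surroundings, and the nearest untreated peak lay 35437 bp away with 3.89 normalized tags. At chr1:173354894-173355154 the FCCP height was 14.6, and an untreated peak of 16.0 normalized tags lay 2810 bp away. The peak at chr2:177545487-177545747, also of 14.6, was exactly 4.00-fold over its surroundings, so it just met the local rule. At chr15:12043085-12043345 the peak held 94 tags at 4.37-fold, and another FCCP peak of 13.4 lay 1142 bp away. The fifth, chr1:75343876-75344136, had 13.9 at 4.08-fold, with an untreated peak of 13.2 normalized tags at a distance of 1100 bp. The first stood farthest above the height the local rule asked for, which was 12.5 normalized tags there.

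Few FCCP-only peaks stood far above their surroundings, and most of those lay near the lower height limit of the rule. At least 8-fold was reached by 146 of 4885 (2.99%, 2.55 to 3.50), where the share was 10.2% among all FCCP peaks, 1410 of 7061 among those of the same height with a partner, and 2.37% among untreated-only peaks. Their heights ran from 5.08 to 10.3 with a median of 5.37 normalized tags, and their median local level was 0.559. Only 2 of them reached 8 normalized tags. The highest fold was at chr10:102349245-102349505, with 6.12 normalized tags and 23.2-fold, 34001 bp from the nearest untreated peak. It was followed by chr2:16160204-16160464 (5.37 normalized tags, 21.0-fold), chr17:64093803-64094063 (5.23, 19.8-fold), chr2:16631752-16632012 (5.52, 19.2-fold) and chr14:114945152-114945412 (5.52, 19.2-fold). All 5 had local levels between 0.256 and 0.288 normalized tags, far below the median of 1.24. By the same approximate comparison, the untreated threshold of 26 tags was the stricter limit at these 5 places, not the local rule. This takes the surroundings to be as sparse without FCCP. The 5 peaks held 35 to 41 tags after FCCP.

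The other readouts of shape differed little. The focus ratio, the share of tags lying on the side of the centre that fits their strand, had a median of 0.714 for FCCP-only peaks, 0.700 for FCCP peaks with a partner and 0.717 for untreated-only peaks. The clonal fold, the caller's measure of tags repeated at 1 position, ran from 0.84 to 0.94 in the FCCP-only peaks and from 0.83 to 0.94 in those with a partner.

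Most FCCP-only peaks lay well beyond the 1000 bp limit of the rule. The median distance between centres was 19834 bp, with quartiles of 7726 and 51084 bp. An untreated centre lay within 2000 bp of 193 of them (3.95%), within 10000 bp of 1550 (31.7%) and within 100000 bp of 4296 (87.9%). Over all FCCP peaks, those with a partner included, these shares were 38.7%, 59.8% and 96.5%. For untreated-only peaks and FCCP centres they were 6.47%, 40.3% and 92.1%. The distance from an arbitrary place to an untreated centre was not worked out, so the median is not shown to be particular to these peaks. Untreated-only peaks had an FCCP centre nearer by, at a median of 13829 bp, but the FCCP list is also the longer one. Other FCCP peaks were rarely close: 4051 of the 4885 (82.9%) had no other FCCP peak of any height within 5 kb, against 5298 of the 7061 with a partner. Neighbouring FCCP-only peaks had a median spacing of 218281 bp, and 142 of 4866 neighbouring pairs lay within 5000 bp.

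**Figure D3:**
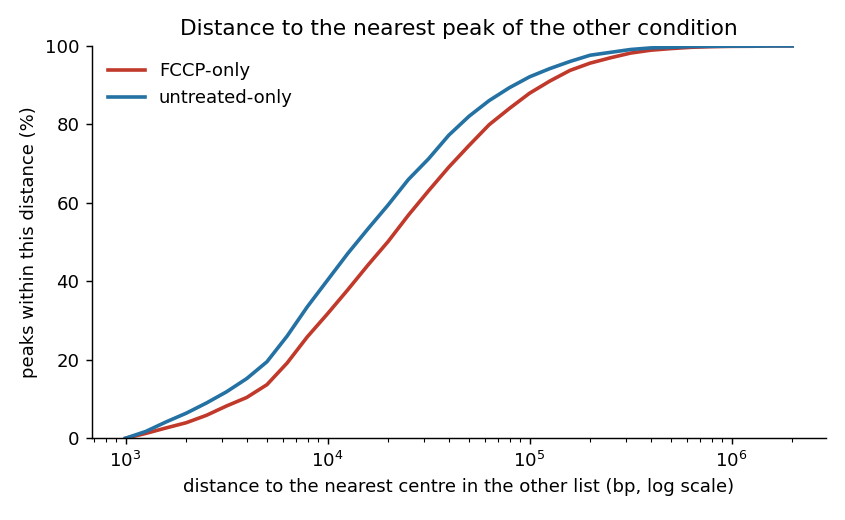
Cumulative share of peaks (y axis, percent) by distance to the nearest peak centre of the other condition (x axis, bp, log scale), for FCCP-only (red) and untreated-only (blue) peaks; both start at the 1000 bp of the rule. The red curve runs to the right of the blue one, with medians of 19834 and 13829 bp.

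The farther a peak lay from untreated peaks, the taller and the nearer to the local limit it was. The 589 FCCP-only peaks more than 100000 bp away had a median height of 5.97, a median fold of 4.41 and a local level of 1.37. For the 1550 within 10000 bp these medians were 5.52, 4.82 and 1.18. A called peak is at least 4 times its local level, so height and local level are tied by the call. These values were not worked out by distance for other peaks, so the order is not shown to be particular to FCCP-only peaks. The farthest FCCP-only peak was at chr15:84254635-84254895, 1536820 bp from the nearest untreated centre, with 6.57 normalized tags at 4.10-fold. Next came chr2:30040466-30040726 (6.87 normalized tags, 1439623 bp), chr2:29892224-29892484 (5.23, 1427133 bp), chr5:36900802-36901062 (6.42, 1410456 bp) and chr2:30465807-30466067 (7.46, 1014282 bp). The 3 chromosome 2 peaks share a stretch of 3015 kb between untreated centres, from 28465221 to 31480219, which held 5 FCCP peaks of any height, 4 of them FCCP-only peaks. The same stretch held 120 male and 35 female BAT peaks, of 39649 male and 18722 female ones on chromosomes 1 to 19.

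Such stretches were common. On chromosomes 1 to 19 there were 433 of at least 500 kb between neighbouring untreated centres, and 271 of them held an FCCP-only peak, 512 peaks in all (10.5% of the FCCP-only peaks). Inside them, more than 1000 bp from either end and so without a partner, lay 1343 FCCP peaks of any height. Of these, 38.1% were FCCP-only peaks of 5 to 15 normalized tags, whereas these were 13.3% of all FCCP peaks without a partner. The stretches with most of them, 7 each, lay on chromosome 17 from 4771869 to 6791692, with 9 FCCP peaks in all, and on chromosome 2 from 160545363 to 161067289, also with 9. On the chromosome 17 stretch the FCCP-only heights ran from 5.08 to 9.70, and the BAT lists held 68 male and 23 female peaks. Whether BAT peaks were denser in such stretches than elsewhere was not tested. The length limit of 500 kb was chosen after the values were seen.

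The share of FCCP-only peaks differed between chromosomes. Chromosome 19 had the highest share, 184 of 354 FCCP peaks of the height range (52.0%, 46.8 to 57.1), and chromosome 14 the lowest, 111 of 451 (24.6%, 20.9 to 28.8); the intervals do not overlap. Chromosome 17 (50.7%) and chromosome 6 (48.8%) were next to the highest, and chromosome 12 (25.8%) and chromosome 4 (26.9%) next to the lowest. The chromosome median was 41.8%. Untreated-only peaks were also many on chromosome 19, with 109, and few on chromosome 14, with 39. FCCP-only peaks were 1.69 times as many as untreated-only ones on chromosome 19 and 2.85 times on chromosome 14. The untreated-only share per chromosome was not worked out, so the order is not shown to be particular to FCCP-only peaks. Across the 19 chromosomes the share went with the median local level of all FCCP peaks there (Spearman's rho 0.646); the points share 1 library pool, and the local level moves with the fold rule of the call. The part of the local level in this order was not tested.

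**Figure D4:**
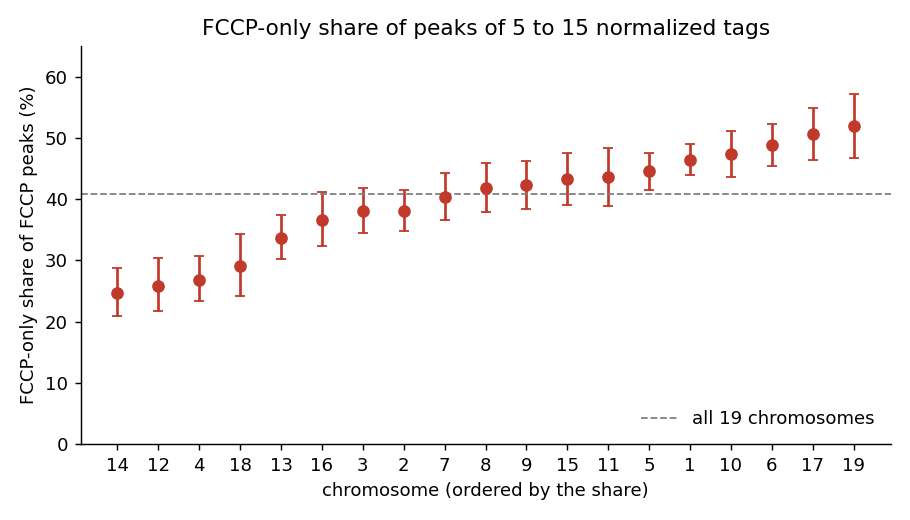
FCCP-only share of FCCP peaks of 5 to 15 normalized tags (y axis, percent) on each of chromosomes 1 to 19 (x axis, ordered by the share); points are shares, bars Wilson 95% intervals, and the dashed line is the share over all 19. Chromosomes 14, 12 and 4 lie lowest, from 24.6% to 26.9%, and chromosomes 17 and 19 highest, at 50.7% and 52.0%.

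The peaks were spread thinly over the genome. Of 2400 windows of 1 Mb with any 3T3-L1 peak, 1754 held an FCCP-only peak, with a median of 2 in those. The 41 windows with at least 10 held 563 of the 4885. The 3 fullest were on chromosome 5: 24 FCCP-only peaks at 5 to 6 Mb, 23 at 8 to 9 Mb and 21 at 4 to 5 Mb, which is 57.1%, 69.7% and 77.8% of the FCCP peaks of this height there. They belong to a longer stretch between 3 and 17 Mb, picked with its values known, with 196 FCCP-only peaks, 85 untreated-only peaks and 227 FCCP peaks with a partner. Over the whole stretch the FCCP-only share was 46.3%, near the 44.5% of chromosome 5. A window dense in FCCP peaks was not always dense in FCCP-only ones. On chromosome 13 at 66 to 67 Mb, the window with most FCCP peaks of this height, 11 of 64 (17.2%) were FCCP-only.

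The BAT lists were not used in the choice of the regions and come from other libraries, called against knockout tissue. A male BAT peak overlapped 173 of the 4885 FCCP-only peaks by at least 1 bp (3.54%, 3.06 to 4.10), and a female one 65 (1.33%, 1.05 to 1.69). Over all FCCP peaks the shares were 2.35% and 1.27%, and over all untreated peaks 2.81% and 1.61%. FCCP peaks of the same height range with a partner overlapped male BAT peaks at 335 of 7061 (4.74%, 4.27 to 5.27) and female ones at 174 (2.46%, 2.13 to 2.85). Untreated-only peaks did so at 124 of 2196 (5.65%, 4.76 to 6.69) and 79 (3.60%, 2.90 to 4.46). The FCCP-only share was thus the lowest of the 3 sets in both BAT lists. It was below that of peaks with a partner on 16 of 19 chromosomes for male and on 13 for female BAT, and below that of untreated-only peaks on 15 and 16. There are no replicates behind these shares, so their difference is given without a test.

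Height bears on this order. Between 5 and 6 normalized tags the male shares of FCCP-only peaks and of FCCP peaks with a partner were nearly equal, 3.58% and 3.62%, and the female shares were 1.48% and 1.61%. Peaks with a partner overlapped BAT more often the taller they were, up to 8.16% (6.71 to 9.88) and 5.73% (4.53 to 7.22) at 8 to 15 normalized tags. Untreated-only peaks reached 17.6% (22 of 125, 11.9 to 25.2) and 9.60% there. FCCP-only peaks of that height stayed at 4.91% (14 of 285, 2.95 to 8.08) and 1.40% (4 of 285, 0.547 to 3.55). Over the whole height range, some female BAT peaks met by peaks with a partner were very tall. Their upper quartile was 68.35 normalized tags, against a median of 3.31 over all female BAT peaks. The part of such tall BAT peaks in the rise with height was not tested. Among the 146 FCCP-only peaks at least 8-fold over their surroundings, 1 overlapped a male BAT peak and 0 a female one. A count of 0 allows a share of up to 2.05% by the rule of 3 counts, and the upper Wilson limit is 2.56%. For FCCP peaks with a partner at that fold the shares were 5.39% and 4.61%. The order was not the same at every fold: from 6- to 8-fold the female share was 2.84% of FCCP-only peaks (13 of 457, 1.67 to 4.81), 1.80% of those with a partner (1.30 to 2.49) and 0.671% of untreated-only peaks (1 of 149, 0.119 to 3.70), and the male shares were 4.60%, 5.09% and 6.71%. At the other end, under 4.5-fold, the FCCP-only shares were 3.81% and 1.14%, and those with a partner 4.57% and 1.64%, with overlapping intervals.

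**Figure D5:**
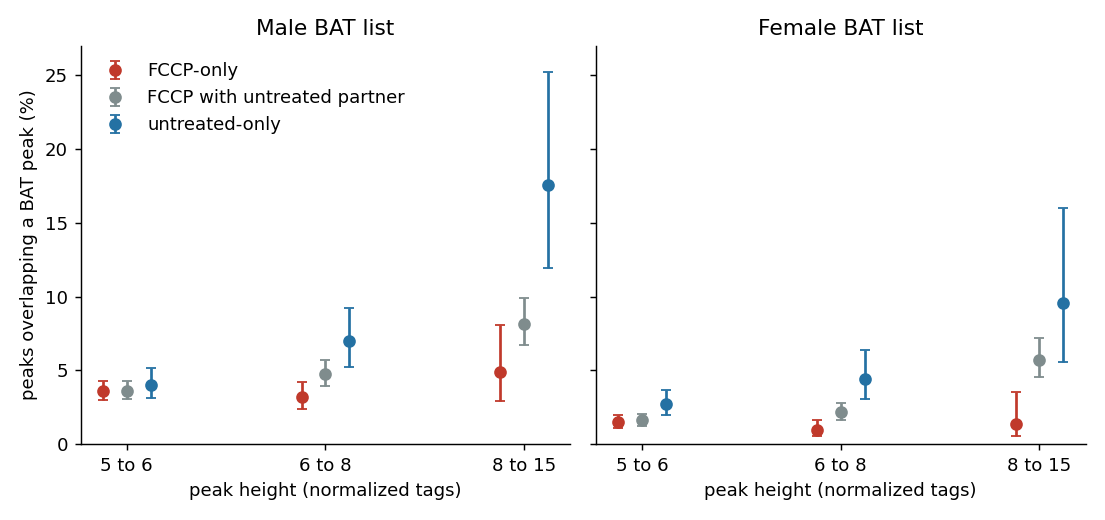
Share of peaks overlapping a male (left) or female (right) BAT peak by at least 1 bp (y axis, percent) by height in normalized tags (x axis), for FCCP-only (red), FCCP peaks with an untreated partner (grey) and untreated-only peaks (blue); bars are Wilson 95% intervals. The grey and blue shares rise with height, to 8.16% and 17.6% in the left panel at 8 to 15 normalized tags, while the red share there is 4.91%.

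FCCP-only peaks far from untreated ones overlapped male BAT more often than near ones. The male share was 2.19% (1.57 to 3.05) within 10000 bp of an untreated centre, 3.71% (3.07 to 4.49) from there to 100000 bp and 6.28% (4.59 to 8.54) beyond. The female shares were 1.16%, 1.27% and 2.04%, with overlapping intervals. Shares by distance were not worked out for other peaks. Whether the male order is particular to FCCP-only peaks was therefore not tested. The BAT peaks met by FCCP-only peaks had a median of 4.66 normalized tags in males and 3.56 in females. Over all BAT peaks on these chromosomes the medians were 4.32 and 3.31. They were 5.32 and 5.85 for BAT peaks met by FCCP peaks with a partner, and 5.99 and 4.32 for those met by untreated-only peaks. The FCCP-only values were thus the lowest of the 3 sets. The median folds over knockout tissue were 5.16 and 5.09 for FCCP-only peaks, against 5.41 and 6.02 over all BAT peaks. They were 4.42 and 3.70 for peaks with a partner, and 3.85 and 5.09 for untreated-only peaks.

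The tallest FCCP-only peaks that overlapped a BAT peak were below the tallest of the set. At chr2:177444232-177444492 the FCCP height was 10.5 normalized tags, and the male BAT peak had 4.66 at 3.44-fold over knockout. At chr6:94674182-94674442 the values were 10.3 and 5.99 (3.79-fold), at chr7:123207044-123207304 they were 10.2 and 5.65 (3.13-fold), and at chr10:59702495-59702755 they were 9.85 and 7.98 (2.95-fold). The fifth, chr2:155048647-155048907 with 9.70, met a female peak of 5.09 at 4.63-fold over knockout. The chromosome 6, 7 and 10 peaks lay 208592, 142901 and 621807 bp from the nearest untreated centre.

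A peak of both BAT lists overlapped 8 FCCP-only peaks (0.164%, 0.0830 to 0.323). Over all FCCP peaks this share was 0.108% (0.0846 to 0.139), and over all untreated peaks 0.184%. It was 0.269% for FCCP peaks of the same height range with a partner (0.172 to 0.420) and 1.00% for untreated-only peaks (0.663 to 1.51). The tallest was chr6:95021215-95021475, with 9.41 normalized tags after FCCP (63 tags) and 7.81-fold over its surroundings. The BAT heights there were 5.65 in males (17 tags, 3.13-fold over knockout) and 3.31 in females (13 tags, 4.01-fold), and the nearest untreated peak lay 6150 bp away. At chr11:113519901-113520161 the FCCP height was 6.72 at 4.03-fold over the surroundings, and the BAT peaks were the highest of the 8, with 60 tags in the male library (2.85-fold over knockout) and 33 in the female one (3.05-fold). Its nearest untreated centre was 645106 bp away. The next, all with 5.82 normalized tags after FCCP, were chr9:7119595-7119855, chr16:23358606-23358866 and chr17:32076774-32077034, where male peaks were 14.7-, 5.90- and 4.42-fold and female peaks 5.24-, 12.96- and 12.03-fold over knockout.

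The limits of the rule cut through ties. At the lowest height, 5.08 normalized tags or 34 tags, there were 735 FCCP-only peaks, such as chr1:3089583-3089843, chr1:4225733-4225993 and chr1:4635897-4636157. One tag lower, at 4.93, lay 863 peaks without a partner, such as chr1:4460772-4461032, chr1:7083027-7083287 and chr1:7210589-7210849. Just above the upper limit were chr1:85049057-85049317 (15.1 normalized tags), chr1:87458262-87458522 (15.5) and chr15:98998323-98998583 (15.8), with folds of 4.15, 4.11 and 4.20 over their surroundings. The smallest distances among the FCCP-only peaks were 1002 bp at chr7:7617320-7617580, 1004 bp at chr8:78351099-78351359 and 1007 bp at chr10:103092153-103092413. The largest among the peaks counted as having a partner were 996 bp at chr1:30218057-30218317, 994 bp at chr14:110262733-110262993 and 977 bp at chr1:144066726-144066986.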

How the data were processed

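The submitters' processing notes name Bowtie2, HOMER and the build mm8, without versions. Per the file headers, each 3T3-L1 list was called on 2 pooled libraries without a control, at a false discovery limit of 0.001, a local fold of 4 over 10000 bp and at most 3 tags per bp. For BAT, 1 wild-type library was set against a knockout one, with limits of 0.05, 2-fold over knockout, 2-fold locally and 1 tag per bp. The pools held 66979291 (FCCP) and 74504840 tags, the BAT libraries 30069322 (male) and 39310667 (female).

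Heights are the authors' normalized tag counts, a signal scaled to 10000000 tags. The local, knockout and clonal folds are ratios given by the authors. The deposited focus ratio is a fraction. The deposited score and p-value columns were not used. Tags were recovered from the signal and the library size.

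The regions and comparisons were chosen with earlier results of these data known. Partners were found by peak centres and overlaps by at least 1 bp; on simulated data with 41.0% of 11946 peaks without a partner, 41.0% were found. Named regions are the 5 tallest, the 5 of highest local fold, the 5 farthest, 3 on either side of each limit, the 5 tallest overlapping BAT or both BAT lists, the 3 fullest windows and the extreme chromosomes. Positions are as in the files. Genes and sequences of mm8 were not used here. The software was pandas 2.3.3, numpy 2.4.6 and SciPy 1.17.1 under Python 3.11.15, with figures from matplotlib 3.10.9.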

Additional observations from a re-analysis of the deposited data

How the results depend on the processing

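The ratio of FCCP-only to untreated-only numbers was between 2.00 and 2.67 under 7 alternatives to the choice of peaks and partners, and 1.17 with untreated peaks of the same raw tags. Limits of 8-fold over the local region and of a focus ratio of at least 0.8 were set on both lists. FCCP peaks whose untreated partner fell below such a limit then counted as FCCP-only. With the full untreated list, 146 FCCP-only peaks reached 8-fold. This bears on every value given at these 2 limits. The number of FCCP-only peaks was 677 from 7 normalized tags, 818 at 8-fold over the local region in both lists and 1400 at a focus ratio of at least 0.8. Their share of FCCP peaks of the height range was 42.9% and 39.3% with partners within 500 and 2000 bp, 46.2% with partners sharing 1 bp, 24.7% from 7 normalized tags, 52.6% at 8-fold and 74.1% at the focus limit. The median local fold was 4.68 with partners sharing 1 bp, 9.08 at 8-fold and 5.33 at the focus limit. The median distance was 17991 and 21236.5 bp with partners within 500 and 2000 bp, 15457.5 bp with partners sharing 1 bp, 28512 bp from 7 normalized tags, 153940 bp at 8-fold and 64087.5 bp at the focus limit; the last pair of limits also shortens the untreated list. The male BAT share was 6.28% with centres within 1000 bp and 2.40% once BAT peaks had to reach 4-fold over knockout. The female share was 2.44% and 1.04% there, 1.03% from 7 normalized tags, 2.20% at 8-fold and 2.50% at the focus limit. The other 28 of 54 values stayed within their counting interval or, for numbers and ratios, within 1.5 times. No paired analysis was possible because there is 1 list per condition, and no library could be left out of the pooled lists.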
